A study of Saccharomyces cerevisiae with 51 samples.

Results

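Nuclear transfer RNA (tRNA) genes are described here from the coordinate files of a chromatin study in budding yeast. A gene was a member when the annotation of the genome version called before gave it the biotype tRNA and it did not lie on the mitochondrial chromosome. This rule found 275 genes on 16 chromosomes, of 299 tRNA genes and of 7126 annotated genes in all. The remaining 24 tRNA genes were mitochondrial. All 275 members had a single transcript record, and all had an identifier whose last letter stood for the chromosome they lay on. The identifier also gives the amino acid in its 1-letter code and the anticodon in brackets, so that tP(UGG)A is a proline tRNA gene with anticodon UGG on chromosome I. In 1 identifier, tX(XXX)D, neither was given.

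The study made 51 sequencing libraries from yeast of the BY4741 background, 17 each from input DNA, histone H3 ChIP and ChIP of H3 phosphorylated at serine 10 (H3pS10), a mitotic mark. The altered strains were ipl1-TetR-mCh, sgo1-TetR-mCh, sgo1 delta and H3-S10A, each grown either in the presence of 1 nM beta-estradiol (E2) during 3 hours or untreated. The ipl1-321 and cdc15-1 strains were kept at 37 °C for 90 minutes. Wild-type cells were sampled under each of these conditions, with 3 numbered replicates with E2 and 3 without, and all other groups had 1 library per assay. The files used here hold chromosome lengths, bins and gene records for a genome version called after and a version called before, and no value for any library. Their depth is therefore unknown, and H3pS10 and H3 at tRNA genes were not analysed here. Coordinates have no replicates and no measurement spread, so counts and distances are compared below without tests.

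tRNAs carry amino acids to the ribosome, where the anticodon pairs with the codon of the messenger RNA. Their genes are short and are transcribed by RNA polymerase III from promoter elements that lie inside the gene. The factor TFIIIC binds these elements and places TFIIIB on the 5′ side, which recruits the polymerase. In budding yeast, transcribed tRNA genes are also known as places where condensin and the cohesin loader bind, and as preferred neighbours of Ty retrotransposon insertions. All positions below are 1-based, in the before version unless stated otherwise. Which genome build they refer to is not stated in the labels or files used here.

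The 275 genes covered 21939 bp, or 0.182% of the nuclear chromosomes. Their median extent was 73 bp, with a range of 71 to 133 bp, against a median of 1086 bp for the 6664 nuclear protein-coding genes. There were 22.8 tRNA genes and 552 protein-coding genes per Mb, or 1 tRNA gene for every 24.2 protein-coding genes. Both strands were used about evenly, with 143 genes on the plus strand and 132 on the minus strand.

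Density differed between chromosomes more for tRNA genes than for protein-coding genes. Chromosome VI had 37.0 tRNA genes per Mb, the highest value, and chromosome II had 15.99, the lowest, a 2.32-fold range. Protein-coding genes ranged from 517 to 584 per Mb, a 1.13-fold range. Chromosomes VI and II had 10 and 13 tRNA genes, against 143 and 462 protein-coding genes. Small counts vary more in proportion, and whether the wider range of tRNA genes exceeds that was not tested. The chromosomes fell into 2 sets separated by a gap in density. Chromosomes III, V, VI, VII and X had 31.6 to 37.0 tRNA genes per Mb, and the other 11 had 15.99 to 24.0. These 5 chromosomes held 100 of the 275 genes (36.4%) on 24.8% of the nuclear length. This split was made after the values were seen.

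In numbers of genes, chromosome VII had the most, 36, followed by chromosome IV with 28, although chromosome IV is the longest. Chromosome I had the fewest, 4. The left arms held 103 tRNA genes (37.5%) and the right arms 172, and 41.6% of protein-coding genes lay on left arms. The split was uneven on single chromosomes, whose arms also differ in length. Chromosome XII had 1 gene on its left arm and 20 on its right. Its interval between the arms, defined below, starts at 150164 of 1078177 bp. Chromosome IX had 9 on its left and 1 on its right, and its interval starts at 355482 of 439888 bp. The counts are not corrected for arm length.

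**Figure D1:**
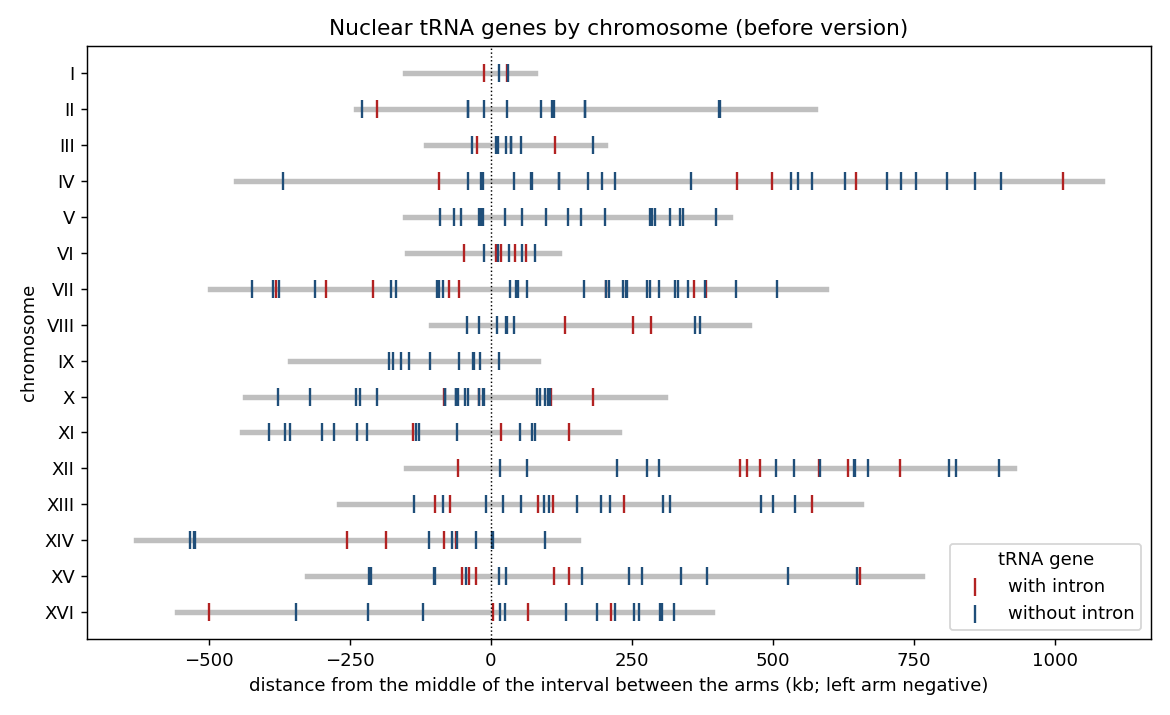
Positions of the 275 nuclear tRNA genes on the 16 chromosomes, drawn as distance in kb from the middle of the interval between the arms, with left-arm distances negative. Grey bars are chromosomes, ticks are genes with an intron (red) or without (blue). Chromosome VII has 36 genes and chromosome I has 4.

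By amino acid, the 274 genes with an anticodon in their identifier covered all 20 amino acids with 41 anticodons. In each of the 41 families the codon complementary to the anticodon was one that the standard genetic code assigns to the named amino acid. Glycine, leucine and lysine had the most genes, 21 each, followed by arginine with 19 and serine and valine with 18 each. Cysteine had the fewest, 4, followed by tryptophan with 6, histidine with 7 and tyrosine with 8. The median amino acid had 15.5 genes.

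Of 61 sense codons, 20 had no gene with the fully complementary anticodon. Such codons are known to be read by wobble pairing at the first anticodon base. By that base, 80 genes in 13 families had U, 75 in 9 families had G, 68 in 7 families had A and 51 in 12 families had C. An A in this place is known to be modified to inosine in tRNAs of yeast, which widens the set of codons read. The number of anticodons was in general higher for amino acids with more sense codons. The 8 amino acids with 1 anticodon had 1 or 2 sense codons, and the 6 with 2 anticodons had 2 to 4. The 3 with 3 anticodons, glycine, valine and threonine, had 4 sense codons each. Leucine, arginine and serine, with 4 anticodons each, had 6.

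Genes were concentrated in large families. The 15 families of 10 or more genes held 181 of the 274 genes (66.1%). The largest were the aspartate family tD(GUC) and the glycine family tG(GCC), with 16 genes each. The families tD(GUC), tG(GCC), tE(UUC) and tK(CUU) each lay on 10 chromosomes, more than any other family.

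At the other end, 6 anticodons had 1 gene each. The serine gene SUP61 (tS(CGA)C, chromosome III, 227942 to 228042, plus strand) is the only one of the 6 with an intron, of 19 bp. The leucine gene tL(GAG)G (chromosome VII, 700675 to 700756, plus strand) and the glutamine gene CDC65 (tQ(CUG)M, chromosome XIII, 808246 to 808317, minus strand) were uninterrupted. So were the arginine genes HSX1 (tR(CCU)J, chromosome X, 538555 to 538626, plus strand) and TRR4 (tR(CCG)L, chromosome XII, 818609 to 818680, plus strand). The threonine gene TRT2 (tT(CGU)K, chromosome XI, 46735 to 46806, minus strand) was also uninterrupted. All 5 of the amino acids concerned also had genes of other anticodons.

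No chromosome had genes for all 20 amino acids. Those with fewer than 20 tRNA genes, such as chromosome II with 13, could not have them all. Chromosomes VII and XIII had 16 amino acids each, with 36 and 21 genes. Chromosome I had 4 amino acids with its 4 genes, 1 each for proline, alanine, leucine and serine. Serine genes lay on 14 of 16 chromosomes, more than any other amino acid, and cysteine genes on chromosomes II, VII and XVI alone.

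Gene names that differ from the identifier were given for 47 genes, and all 47 were found as symbols of tRNA genes in NCBI's table of R64 genes. The 16 SUP names and 15 SUF names go back to genetic screens for suppressors of nonsense and frameshift mutations. All 8 tyrosine genes had a SUP name, among them SUP4 (tY(GUA)J2). Of 10 methionine genes, all with anticodon CAU, 4 had an IMT name, used for the initiator tRNA, and 5 an EMT name, used for the elongator tRNA. The tenth, tM(CAU)C, had no such name.

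**Figure D2:**
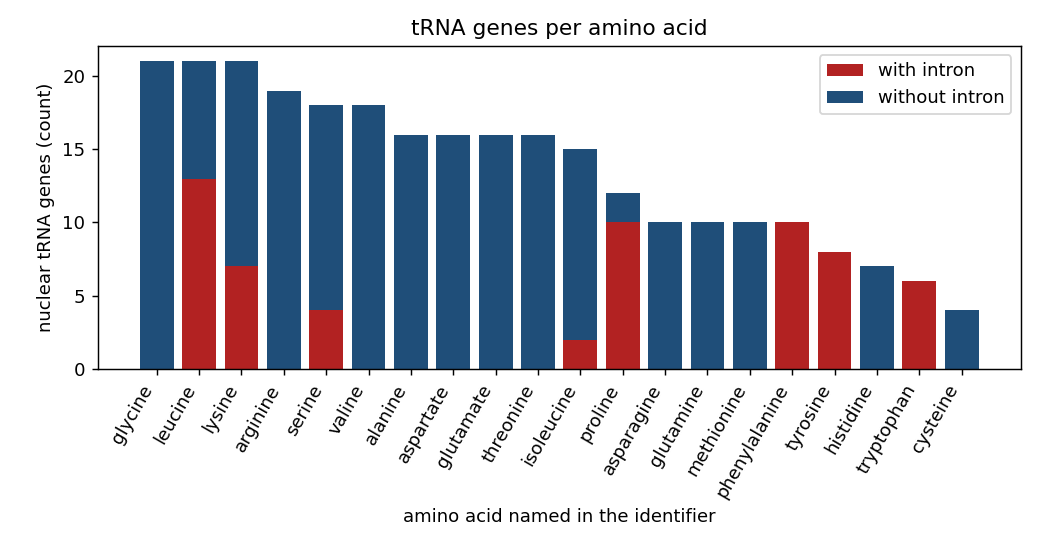
Number of nuclear tRNA genes per amino acid, as counts, with genes that have an intron in red and the others in blue. Glycine, leucine and lysine reach 21 genes and cysteine 4, and all genes for phenylalanine, tyrosine and tryptophan have an intron.

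Introns followed the anticodon without exception in this annotation. Of 275 genes, 60 (21.8%) had 2 exon records and 215 had 1. The 60 genes made up 10 of the 41 families, each with an intron in every gene, and the other 31 families had none. Among protein-coding genes, leaving out 45 whose coding parts are 1 base apart, 273 of 6619 (4.12%) had 2 or more exons. tRNA introns are removed by the SEN endonuclease and the ligase Trl1, not by the spliceosome.

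Phenylalanine (10 genes), tyrosine (8) and tryptophan (6) had introns in all their genes. Proline had them in the 10 genes of anticodon UGG and not in the 2 of AGG. Leucine had them in the 10 genes of CAA and the 3 of UAG, and not in the 7 of UAA or the 1 of GAG. Lysine had them in the 7 genes of UUU and not in the 14 of CUU. Isoleucine had them in the 2 genes of UAU and not in the 13 of AAU. Serine had them in the 1 gene of CGA and the 3 of GCU, and not in the 11 of AGA or the 3 of UGA. The intron therefore separated families within 5 amino acids.

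Intron length was also a property of the family. Lengths ran from 14 to 60 bp with a median of 23 bp, and 6 of the 10 families had a single length. The 8 tyrosine introns were all 14 bp, the shortest, and both isoleucine introns, in tI(UAU)D on chromosome IV and its counterpart on chromosome XII, were 60 bp, the longest. The 7 lysine introns were all 23 bp, the 6 tryptophan introns 34 bp and the 3 leucine UAG introns 19 bp. Small differences occurred in 4 families. The phenylalanine introns were 18 bp in 3 genes and 19 bp in 7, and the leucine CAA introns 32 bp in 8 and 33 bp in 2. The proline introns were 30 bp in 2 genes, 31 bp in 7 and 33 bp in 1. The serine GCU introns were 19 bp in 2 and 20 bp in 1.

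For comparison, the 282 introns of protein-coding genes had a median of 141 bp and a minimum of 49 bp, and 6 of them were no longer than 60 bp. The place of the tRNA intron varied little. The first exon was 36 to 39 bp long in all 60 genes, and the second 36 to 45 bp. In tRNAs, introns are known to lie just after the anticodon.

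**Figure D3:**
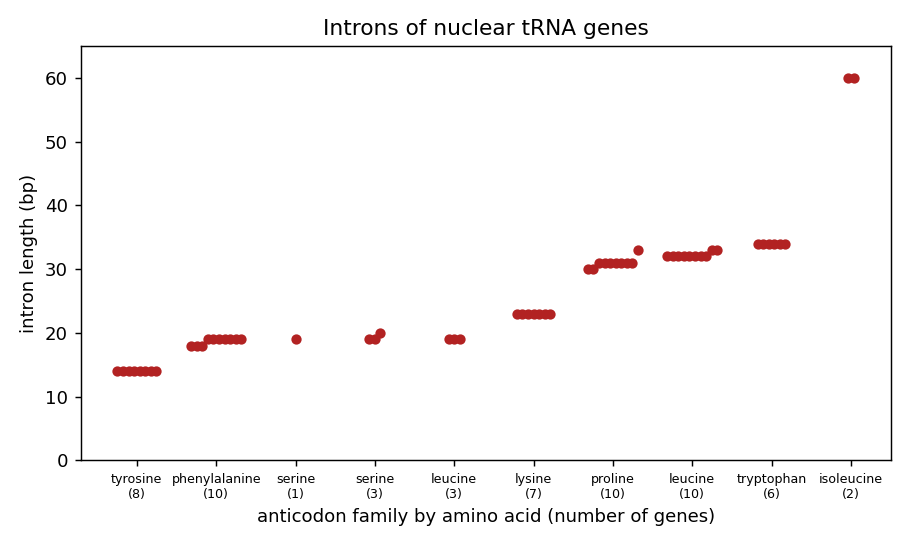
Intron length in bp of the 60 interrupted tRNA genes, by anticodon family. Each point is 1 gene, and the number of genes is given under the amino acid. Tyrosine introns sit at 14 bp, isoleucine introns at 60 bp, and within a family lengths differ by at most a few bp.

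Without introns, tRNA genes fell into 2 size classes. The 39 leucine and serine genes had a summed exon length of 80 to 84 bp with a median of 82 bp. The 235 genes for the other 18 amino acids had 71 to 75 bp with a median of 73 bp, and the classes did not overlap. Leucine and serine tRNAs are known for a long variable arm. Length was the same in all members of 37 of the 41 families, and in the other 4, tD(GUC), tM(CAU), tS(AGA) and tS(GCU), it differed by 1 or 2 bp. The 17 shortest genes, at 71 bp, were the 16 glycine genes of anticodon GCC and 1 aspartate gene. The longest by exons were tX(XXX)D, at 100 bp and outside both classes, and the 7 leucine genes of anticodon UAA, at 84 bp.

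A larger share of tRNA genes than of protein-coding genes lay near the interval between the arms, where the centromere of a yeast chromosome lies. The interval was taken from the last gene with a left-arm name to the first gene with a right-arm name. Within 20 kb of it lay 29 of 275 tRNA genes (10.5%), against 5.78% of all 7071 nuclear genes and 5.63% of protein-coding genes. The median distance was 145 kb for tRNA genes, 215 kb for protein-coding genes and 156 kb for the 77 snoRNA genes. These shares and medians pool chromosomes of different length and tRNA gene density, and were not corrected for either. The 29 genes were spread over 15 chromosomes, 14 on left arms and 15 on right arms, and carried 17 amino acids.

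The higher share than in protein-coding genes was found beyond the first 10 kb. In the nearest 10 kb there were 6 tRNA genes (2.18%) against 3.03% of protein-coding genes. Between 10 and 20 kb there were 23 (8.36%) against 2.60%, between 20 and 30 kb 14 (5.09%) against 2.72%, and between 30 and 50 kb 21 (7.64%) against 5.36%. The 77 snoRNA genes had 3 in the nearest 10 kb (3.90%), 0 between 10 and 20 kb, 8 between 20 and 30 kb (10.4%) and 4 between 30 and 50 kb (5.19%). Summed out to 30 kb the share was 15.6% for tRNA genes and 14.3% for snoRNA genes, and out to 50 kb 23.3% and 19.5%, so that the sums for these classes were closer to each other than to those of protein-coding genes, 8.34% and 13.7%. Genes of a class are not independent draws, and these shares carry no test. No tRNA gene lay inside an interval. The flanking genes are those with arm names by the definition of the interval, so a tRNA gene could not be one.

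The nearest were on chromosome XIV. There the proline gene SUF10 (tP(AGG)N, 631846 to 631917, minus strand) lay 2224 bp from the interval and the asparagine gene tN(GUU)N2 (632599 to 632672, plus strand) 2977 bp, a divergent pair 681 bp apart. Next came the phenylalanine gene tF(GAA)P1 on chromosome XVI at 3821 bp (560198 to 560289, minus strand) and the proline gene SUF2 on chromosome III at 7892 bp (tP(AGG)C, 123577 to 123648, minus strand). The fifth was the serine gene tS(AGA)M on chromosome XIII at 8561 bp (259158 to 259239, minus strand). SUF10 and SUF2 are the only genes of anticodon AGG, and both were among these 5.

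On chromosome VII, which has the most tRNA genes, the nearest, tD(GUC)G1, lay 34.5 kb away, and it was the only chromosome without one within 20 kb. On the other 15 chromosomes the nearest tRNA gene lay 2.22 to 17.9 kb from the interval.

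The farthest genes were on the longest right arms. They were tL(CAA)D on chromosome IV at 1011 kb, tK(CUU)D2 on chromosome IV at 902 kb, tI(AAU)L2 on chromosome XII at 901 kb, tS(AGA)D3 on chromosome IV at 855 kb and tN(GUU)L on chromosome XII at 825 kb. Near chromosome ends tRNA genes were scarce. Within 20 kb of an end lay 1 of 275 (0.364%), against 4.83% of protein-coding genes and 4.74% of all nuclear genes. None of the 77 snoRNA genes lay that close to an end. That gene was tL(UAA)B1 on chromosome II, 9582 bp from the left end, and the next nearest was tT(AGU)C on chromosome III, 21064 bp from the right end.

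**Figure D4:**
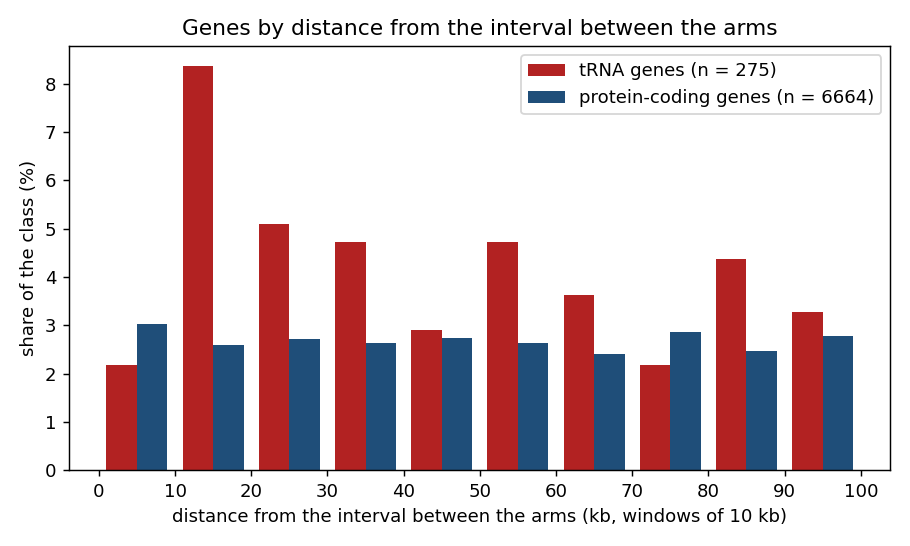
Share in percent of the 275 tRNA genes (red) and of the 6664 protein-coding genes (blue) in successive windows of 10 kb from the interval between the arms, out to 100 kb. The tRNA share is 2.18% in the first window and 8.36% in the second, where the protein-coding share is 2.60%.

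Fewer tRNA genes than protein-coding genes had a protein-coding gene close by. The median distance to the nearest protein-coding gene was 261 bp for tRNA genes, 218 bp for snoRNA genes and 215 bp for protein-coding genes. The share within 100 bp was 7.64% for tRNA genes, 29.9% for snoRNA genes and 28.5% for protein-coding genes, and the share beyond 500 bp was 20.7%, 10.4% and 10.7% in the same order. With protein-coding genes limited on both sides of the comparison to those in the R64 table, the medians were close, at 275 bp for tRNA genes and 259 bp for protein-coding genes. The shares within 100 bp were then 3.27% and 12.2%, and those beyond 500 bp 22.5% and 13.7%, for tRNA genes and protein-coding genes in that order. Of the stretches free of protein-coding genes, 245 held a whole tRNA gene and had a median length of 1302 bp. The 5710 others had a median of 345 bp, and the 2925 of them as long as the shortest tRNA stretch, 338 bp, had a median of 560 bp.

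The wide side was the 5′ side. Counting only genes that do not overlap, the nearest protein-coding gene was at a median of 841 bp on the 5′ side and 305 bp on the 3′ side of tRNA genes. On the 3′ side, the median was 318 bp for protein-coding genes and 304 bp for snoRNA genes, close to that of tRNA genes. On the 5′ side it was 453 bp and 579 bp for these classes. The 5′ side was the longer in 216 of 275 tRNA genes (78.5%), 53 of 77 snoRNA genes (68.8%) and 4341 of 6614 protein-coding genes with a neighbour on each side (65.6%). On the 5′ side the neighbour was on the same strand for 124 tRNA genes and on the opposite strand for 151, and on the 3′ side on the same strand for 154 and the opposite for 121.

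Among genes with no overlap, the closest to a protein-coding gene was the leucine gene tL(UAG)L2 (chromosome XII, 732090 to 732190, plus strand), which abutted YLR302C with no base between. The alanine gene tA(AGC)K2 (chromosome XI, 517988 to 518060, plus strand) lay 2 bp from YKR040C. The serine gene tS(AGA)E (chromosome V, 86604 to 86685, plus strand) lay 5 bp from MTC7. The phenylalanine gene tF(GAA)H2 (chromosome VIII, 358478 to 358569, minus strand) lay 33 bp from NDT80, which encodes the meiotic transcription factor, and SUP61 52 bp from YCR064C.

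The most isolated were tL(UAA)N on chromosome XIV, 1827 bp from ESF2, and tA(AGC)L on chromosome XII, 1819 bp from YLR257W. They were followed by tH(GUG)G2 on chromosome VII, 1701 bp from USE1, tD(GUC)L2 on chromosome XII, 1583 bp from RPS25B, and SUP19 (tS(UGA)E) on chromosome V, 1528 bp from ICL1.

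In all, 14 tRNA genes (5.09%) overlapped 15 annotated protein-coding genes, against 19.6% of protein-coding genes that overlapped another. With genes of the R64 table alone, the shares were 1.82% of tRNA genes and 3.64% of protein-coding genes. The overlapped genes were short, 102 to 408 bp, and 10 of the 15 were not found in the R64 gene table. Of the 14 tRNA genes, 9 lay wholly inside another gene. On the same strand, tE(CUC)D lay in YDR278C, tK(CUU)D2 in YDR445C, tP(UGG)O1 in YOL013W-A and tT(UGU)P in YPR108W-A. On the opposite strand, tR(UCU)G2 lay in YGR164W, tG(UCC)N (SUF6) in YNL285W, tI(AAU)N2 in YNL017C and tM(CAU)J2 (EMT3) in YJL007C. The gene tT(UGU)H lay in both YHR180C-B and YHR180W-A. Partial overlaps joined tX(XXX)D with YDR340W, tP(UGG)H (SUF8) with YHR145C, tP(UGG)N1 with YNL042W-B, tP(UGG)O2 (SUF11) with YOR072W-B and tG(GCC)P2 with YPR159C-A. The overlapped genes found in the table were YGR164W, YJL007C, YNL042W-B, YOR072W-B and YPR159C-A.

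SUF11 (chromosome XV, 464450 to 464551, plus strand) was also the nearest tRNA gene to SGO1 (464771 to 466543), at 219 bp. SGO1 is the shugoshin gene, named in the sgo1 delta and sgo1-TetR-mCh strains. The other strain genes were farther from a tRNA gene, with HHT2 at 5.70 kb, CDC15 at 5.87 kb, HHT1 at 9.64 kb and IPL1 at 52.6 kb. These genes were looked up because the strain names point to them, after the overlap of SUF11 was seen. The labels do not state which histone H3 gene carries S10A or where the fusions were placed.

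Most tRNA genes had no other tRNA gene within 5 kb. The median distance to the nearest other tRNA gene was 11.8 kb, with quartiles of 4.19 and 26.7 kb. Another tRNA gene lay within 1 kb of 16 genes (5.82%) and within 5 kb of 80 (29.1%). There were 22.8 tRNA genes per Mb, and the spacing under random placement at that density was not computed. Of 245 protein-coding-free stretches with a tRNA gene, 230 held 1, 14 held 2 and 1 held 3. The most remote was tG(GCC)D1 on the left arm of chromosome IV, 276 kb from the next.

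The closest neighbours formed a repeated unit. In 4 places an arginine gene with anticodon UCU was followed, after 10 bp on the same strand, by an aspartate gene with anticodon GUC. These were tR(UCU)B and tD(GUC)B on chromosome II (405878 to 406031), tR(UCU)D and tD(GUC)D on chromosome IV (571987 to 572140), tR(UCU)J1 and tD(GUC)J2 on chromosome X (355374 to 355527), and tR(UCU)J2 and tD(GUC)J3 on chromosome X (374424 to 374577, minus strand). In yeast this arginine and aspartate pair is known to be transcribed as 1 precursor. The units took 4 of 11 tR(UCU) genes and 4 of 16 tD(GUC) genes. The fifth pair under 100 bp was convergent, with tI(AAU)B and tG(GCC)B on chromosome II facing each other across 61 bp (197494 to 197699).

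Over all 259 pairs of neighbouring tRNA genes, 126 were in tandem, 66 convergent and 67 divergent. Of the 259 pairs, 5 had the same anticodon and 6 the same amino acid. There were 41 anticodon families of at most 16 genes, and the share among randomly drawn pairs was not computed.

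Most long frameshifted genes lay next to a tRNA gene, on its 5′ side. A coding sequence made of 2 parts 1 base apart and spanning over 4000 bp was found in 42 nuclear genes, of 4498 to 5410 bp. This is the structure of the gag-pol gene of Ty retrotransposons, which is read with a frameshift. The annotation does not name the genes as Ty, and the long terminal repeats are not among the gene records, so distances run to the coding part. The 3 shorter genes of this structure, EST3, ABP140 and OAZ1, were left out.

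Of the 42, 29 (69.0%) lay within 1 kb of a tRNA gene, against 436 of the 6622 other protein-coding genes (6.58%). The median distance to a tRNA gene was 0.535 kb for the 42 and 17.1 kb for the others. The others include shorter genes that share an edge with a long frameshifted gene. Examples are YDR034C-C, also 386 bp from tL(UAA)D, and YPL257W-A, also 473 bp from tW(CCA)P. Such genes were not set apart in the counts of other protein-coding genes here or below. All 29 lay on the 5′ side of their nearest tRNA gene, each beside a different one, at 386 to 818 bp with a median of 480 bp. Widened to 2 kb, the count was 32, again all on the 5′ side. Orientation was mixed, with 10 of the 29 on the strand of the tRNA gene and 19 on the opposite strand.

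Seen from the tRNA genes, 31 of 275 (11.3%) had a long frameshifted gene within 1 kb, against 0.71% of other protein-coding genes and 0 of 77 snoRNA genes. For 30 of the 31 it was on the 5′ side. The exception was the tryptophan gene tW(CCA)M on chromosome XIII, with YMR050C 977 bp away on its 3′ side, and YMR050C lay nearer, at 538 bp, to the 5′ side of tV(AAC)M1. On chromosome XIV, YNL284C-B stood on the 5′ side of 2 genes, tN(GUU)N1 at 483 bp and tG(UCC)N at 651 bp. Other protein-coding genes had 23 cases on the 5′ side and 24 on the 3′ side.

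The 30 genes were spread over 13 chromosomes and 16 amino acids. Chromosome IV had 6, among them tL(UAA)D, with YDR034C-D at 386 bp, the shortest distance, and tI(UAU)D, with YDR210C-D at 433 bp. Chromosome IX had 1, tI(AAU)I2, with YIL082W-A at 532 bp. The glycine genes accounted for 4 of the 30. The 10 long frameshifted genes more than 2 kb from a tRNA gene included 3 whose nearest tRNA gene already had another long frameshifted gene within 1 kb of it. These were YGR161W-B, YPR158W-B and YDR210W-B, at 6.43 to 6.94 kb. The farthest was YHR214C-B on chromosome VIII, at 68.2 kb.

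**Figure D5:**
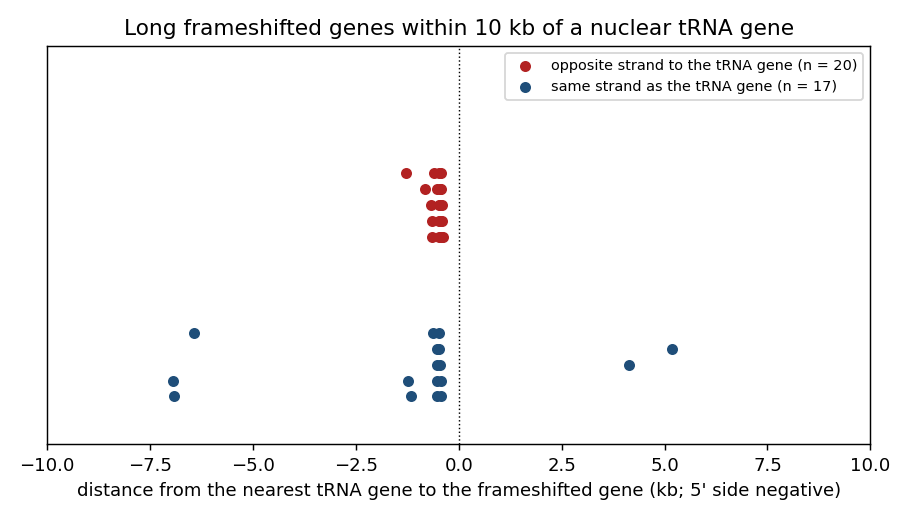
Distance in kb from the nearest tRNA gene to the 37 long frameshifted genes within 10 kb of one, with the 5′ side of the tRNA gene negative. Each point is 1 frameshifted gene, on the opposite strand (red, 20 genes) or the same strand (blue, 17 genes), and the vertical scatter within a colour has no meaning. The cluster just left of 0 holds the 29 genes at 386 to 818 bp.

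Between the genome versions, tRNA genes differed in position on chromosome IV alone, which is 3423 bp shorter after than before. The shortened interval lies between the arms. None of the 247 tRNA genes elsewhere moved. On chromosome IV, the 5 left-arm tRNA genes kept their coordinates, and the 23 right-arm genes (82.1%) had coordinates 3423 bp lower after than before, against 69.8% of all 886 genes of the chromosome. All 275 genes kept strand and length. The tRNA genes nearest the changed interval were tS(AGA)D1 on the left, at 437772 to 437853 in both versions and 11423 bp from it, and tV(UAC)D on the right, starting at 488479 after and 491902 before and 38577 bp from it. No tRNA gene lay within 11 kb of the change.

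The chromosome is divided into 500 bins in each version, of 3064 bp after and 3071 bp before. By midpoint, the bin number differed between the versions for 14 of the 28 tRNA genes of chromosome IV, against 31.6% of all its genes. Coordinates had moved for 82.1% of these tRNA genes and 69.8% of all genes of the chromosome, and bin numbers were not compared among moved genes alone. All 14 tRNA genes with another number were on the right arm and had a number 1 lower after. The 10 of them nearest the interval were tV(UAC)D (bin 160 after, 161 before), tL(UAA)D and tQ(UUG)D1 (170 and 171), tR(UCU)D and tD(GUC)D (186 and 187), tQ(UUG)D2 (211 and 212), tI(AAU)D (218 and 219), tQ(UUG)D3 (262 and 263), tI(UAU)D (289 and 290) and SUP2 (tY(GUA)D, 309 and 310). The others were tG(GCC)D2 (324 and 325), tE(CUC)D (332 and 333), tV(CAC)D (351 and 352) and tL(CAA)D (477 and 478).

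Over all nuclear chromosomes, tRNA genes occupied 268 of 8000 bins (3.35%), and no bin held more than 2. The 7 bins with 2 included 3 of the 4 arginine and aspartate units. A bin was 461 to 3071 bp wide before, so a tRNA gene filled a small part of it, and 15 tRNA genes crossed a bin border.

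The listed protein genes of the pathway lay at distances from tRNA genes close to those of all protein-coding genes. The list left out 3 cytosolic synthetase genes, for arginine (YDR341C), proline (YHR020W) and cysteine (YNL247W), which were added after the values were seen. The 57 listed genes had a median distance of 17.3 kb to the nearest tRNA gene, and all 6664 protein-coding genes 16.9 kb. Medians of the single lists ran from 5.89 kb for the 5 condensin genes to 26.3 kb for the 17 RNA polymerase III genes. Within 2 kb lay 7 of the 57 (12.3%), against 11.0% of protein-coding genes. With the 3 added genes, the median was 16.8 kb and 9 of 60 lay within 2 kb. Of 17 RNA polymerase III subunit genes, 4 lay within 2 kb, namely RPC17 at 195 bp from tK(CUU)J, RPC10 at 1447 bp from tP(UGG)H, RPC40 at 1472 bp from tT(UGU)P and RPC34 at 1671 bp from tN(GUU)N2. None of the 6 TFIIIC genes, the 4 genes for TFIIIB and the repressor Maf1, or the 7 genes for tRNA splicing and export was that close. The TFIIIC gene TFC3 (YAL001C) is the left flank of the interval between the arms of chromosome I, and it lay 8.34 kb from tP(UGG)A.

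Of the 5 condensin genes, YCS4 lay 656 bp from tV(AAC)L, and the others at 4.34 to 67.9 kb. Of the 18 listed genes for cytosolic aminoacyl-tRNA synthetases, which load tRNAs with amino acids, the seryl enzyme gene SES1 lay 637 bp from tV(UAC)D and the threonyl enzyme gene THS1 1760 bp from tI(AAU)I2, neither beside a tRNA gene of its own amino acid. Of the 3 added genes, YHR020W was nearer than any listed synthetase gene, at 179 bp from the alanine gene tA(AGC)H. YDR341C lay 861 bp from tX(XXX)D and YNL247W 78.0 kb from tT(AGU)N1, so that 4 of 21 synthetase genes lay within 2 kb. On chromosome IV, with 7 listed genes and YDR341C, RPC11 (bin 179 after, 180 before), TFC6 (391 and 392), KRS1 (172 and 173) and SES1 (160 and 161) had a lower bin number after, and RPC53 (61 and 60) a higher one. MAF1 (bin 150), YCG1 (bin 366) and YDR341C (bin 377) had the same number in both.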

How the data were processed

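Per the submitters' processing notes, reads were aligned with Bowtie2 version 2.2.9. Later steps and the genome build are not stated in the labels or files. The authors' deposited files hold positions in bp (bin borders, chromosome lengths and gene records whose source field names Ensembl) for the after and before versions, with no other value. Depth, intervals and limits of detection could not be computed, and the planned test of H3pS10 over H3 could not be made.

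Members were taken by biotype, and the amino acid and anticodon from the identifier. Introns were gaps between 2 exon records. Distances are bases between the nearest edges, 0 for overlap. Bins were assigned by midpoint. A reference list of protein-coding genes came from the NCBI table of assembly R64, used for names and presence only, in which 5989 of 6664 identifiers matched. It lists 275 nuclear tRNA genes, with the same number as the deposited annotation on each of the 16 chromosomes. No genome or sequence was used.

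The code for distances to protein-coding genes was tested on simulated data, with 208 genes planted without overlap at known distances and all 208 recovered. Overlaps, distances between tRNA genes, distances to the interval and to chromosome ends, and bins were not part of that test. Members and gene lists were chosen with earlier results of these data known. Named genes were single-gene anticodons, extremes of distance and length, overlaps, pairs under 100 bp, the chromosome IV genes with another bin number or nearest the change, and listed genes within 2 kb of a tRNA gene or on chromosome IV. Genes beside long frameshifted genes, strain genes and other examples were chosen after their values were seen. Python 3.11.15, pandas 2.3.3, numpy 2.4.6, Biopython 1.88 and matplotlib 3.10.9 were used. Alternatives were other windows, distance definitions, gene sets, genome versions and bin rules.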

Additional observations from a re-analysis of the deposited data

How the results depend on the processing

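The count of 275 tRNA genes was the same in the after version, and the identifier pattern gave 274, without tX(XXX)D. Gaps of at least 1 bp between exons gave the same count of 60 genes with an intron. The range of densities was 2.49-fold per protein-coding gene, against 2.32-fold per Mb. The count near the interval between the arms depended on the window, with 6 genes within 10 kb and 64 within 50 kb, against 29 within 20 kb. Limiting protein-coding genes to those in the R64 table gave 5.91% of them within 20 kb of the interval, a median of 275 bp from tRNA genes to the nearest, and 5 overlapping tRNA genes instead of 14. With 5 kb in place of 1 kb, 80 tRNA genes instead of 16 had another nearby. With 500 bp in place of 1 kb, 18 instead of 30 had a long frameshifted gene on the 5′ side. Listed genes had a median of 18.1 kb to a tRNA gene by midpoints, against 17.3 kb by edges, and 16.8 kb by edges with the 3 synthetase genes added after seeing the data. The other 17 of 27 alternatives gave counts within 1.5 times the value reported, or equal values. Among them, gene names that follow the identifier scheme gave 31 anticodon families, against 41 by identifiers. A window of 30 kb from the interval gave 43 tRNA genes, against 29 within 20 kb. Families and exons could not be checked against the gene table, and frameshifted genes could not be matched to Ty names in it. The planned comparison of tRNA gene number with the amino acid content of proteins was not run. No paired analysis was possible because no library has a value in these files, and leaving out replicates was not run for the same reason.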
